A study of Mus musculus with 64 samples.

Results

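The 9 genes described here, Unc5a, Camk4, Map3k9, Aifm3, Ndrg4, Radil, Myh3, Hmga1 and Chtf18, were chosen from the 26385 genes in the tables because their RNA was much lower in whole testis of DNMT3L KO mice at P10.5 (P for postnatal day) than in that of their controls. The counts and the RPKM (reads scaled to exon length and to the mapped reads of the library) of that contrast made the choice, so those values are given as a description with no test. The question followed below is how the same 9 genes stood in the other mutant lines of the series, Morc1 and Miwi2, and in sorted germ cells of different stages, none of which entered the choice.

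The series measured gene expression by RNA-Seq in mouse testis, with 27 libraries of whole testis and 20 of sorted germ cells, each from 1 mouse. The DNMT3L line had 3 WT, 3 het and 3 KO whole testes at P10.5. The Morc1 line had 1 WT, 2 het and 3 KO whole testes at P10.5, 3 het and 3 KO at P14.5, and 2 further P10.5 control libraries labelled preliminary that entered an alternative fit and the correlations at the end and no other comparison. The Miwi2 line had 2 het and 2 KO whole testes at P10.5. All Morc1 KO mice were homozygous for a tyrosinase transgene, made in FVB/N, whose insertion removes part of Morc1 and not all of it. The mice for sorting up to P2.5 were crossed into the mixed background of the reporter line, and the strain of the DNMT3L and Miwi2 lines was not given in the sources used here. Sorted germ cells came only from Morc1 het and Morc1 KO mice, with 2 het and 2 KO libraries at E16.5 (E for embryonic day), 2 and 2 at E18.5, 3 and 2 at P2.5, then 4 and 3 at P10.5. Cells up to P2.5 were sorted on an Oct4-IRES-eGFP reporter that all those mice carried, and cells at P10.5 on side scatter, EPCAM and MHC I without the reporter. The whole testis libraries were made from polyadenylated RNA and the sorted cell libraries from RNA depleted of ribosomal RNA, so levels in both are set side by side only with that difference in view.

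DNMT3L is a catalytically inactive partner of the DNA methyltransferase DNMT3A, and together they methylate transposons and imprinted regions in fetal male germ cells. MORC1 is a nuclear ATPase needed for transposon repression in the same cells, and MIWI2, encoded by Piwil4, is the nuclear PIWI protein that guides this methylation with piRNAs. Male mice that lack any of these proteins lose germ cells around the onset of meiosis, while the first wave of spermatogonia in a young testis is still passing from the undifferentiated to the differentiating state. A gene used mainly by germ cells therefore gives less RNA per whole testis when those cells are fewer. In these bulk libraries, fewer cells of a type and less RNA per cell cannot be told apart.

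The targeted genes were checked first. Dnmt3l was at 0.721, 0.807 and 1.02 RPKM in the DNMT3L WT libraries and at 0.0402, 0.037 and 0.0464 in the KO libraries. Morc1 was at 10.2 RPKM in the P10.5 WT testis, 6.29 and 6.46 in the het and 2.41, 2.06 and 2.32 in the KO testes. Piwil4 went against its label: it was at 6.65 and 7.01 RPKM in the libraries labelled Miwi2 het and at 10.7 and 11.5 in those labelled Miwi2 KO (log2 fold change 0.69, adjusted p = 0.000746 by edgeR's quasi-likelihood test). Counts per gene do not show which exons were read and so do not settle the genotype by themselves, and every direction drawn from these 4 libraries below is that of the labels. Reads on genes numbered 28500020 to 42137954 in the DNMT3L testis libraries, 22509570 to 38113208 in the Morc1, 35743634 to 37207775 in the Miwi2 and 2413679 to 14918478 in the sorted cell libraries. The tissue labels held: 11 germ cell markers summed to 628 to 743 RPKM in Morc1 het germ cells sorted at P10.5 against 460 to 475 in the control testes, and the 9 Sertoli cell markers found in the tables to 75.9 to 126 against 3386 to 3655. Genes of other tissues stood apart in some libraries. Summed epididymis genes were at 4.77 to 34.5 RPKM in DNMT3L WT, 0.051 to 24.6 in het and 0.0447 to 0.221 in KO testes, and summed fat genes at 28.8 to 32.3 in the libraries labelled Miwi2 het against 5.95 to 6.32 in those labelled Miwi2 KO. The libraries labelled Miwi2 KO also stood above those labelled het in summed epididymis genes (373%) and blood and macrophage genes (121% each). So they did in endothelial genes (117%) and Sertoli cell markers (112%). They stood below them in Leydig cell genes (84.7%), each of these without overlap. The part of these tissues in the values below was not tested.

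The 9 genes lie on 8 chromosomes and share no locus. In the mm9 build used for the tables, Aifm3 is at chr16:17489704-17507578 (+), Unc5a at chr13:55050772-55107379 (+), Map3k9 at chr12:82815937-82882157 (-), Ndrg4 at chr8:98200880-98239019 (+) and Myh3 at chr11:66891802-66915793 (+). Radil is at chr5:142960793-143027052 (-), Camk4 at chr18:33098695-33355421 (+), Hmga1 at chr17:27693565-27700619 (+) and Chtf18, on the same chromosome, at chr17:25855871-25864364 (-).

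Reads were counted with the default settings of HTSeq, and the whole testis kit does not mark strand. Reads over bases that a gene shares with one on the opposite strand therefore cannot be told apart there, which applies to 3 members. Chtf18 shares 399 exon bases with Gng13 on the opposite strand, Hmga1 100 bases with AI413582 and Unc5a 34 bases with Hk3. In DNMT3L KO testis Gng13 was at log2 -1.70 beside -1.59 for Chtf18, AI413582 at -0.40 and Hk3 at -0.13, as a description. None of these other genes was called in Morc1 KO testis at P10.5 or P14.5. Over all 47 libraries together Gng13 had 2041 reads, AI413582 5427 and Hk3 1868, and their part in the values of the members was not tested. Radil holds the whole of Papolb, a testis poly(A) polymerase gene, on its own strand with no exon base in common. Hmga1 has near-identical copies elsewhere in the genome and only uniquely mapped reads were counted, so its level is uncertain in scale.

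Because the DNA methylation that DNMT3L takes part in falls on CG dinucleotides, the promoters are shown by their CG content. The 250 bases before the annotated start were read from RefSeq on GRCm38.p6, where 8 of the 9 genes were matched. Unc5a (chr13:54949161-54949410, +), Aifm3 (chr16:17489427-17489676, +) and Hmga1 (chr17:27556324-27556573, +) are printed as CG-rich members and Myh3 (chr11:67078050-67078299, +) as the one with the fewest CG in its only listed promoter, each 5′ to 3′ with every CG in capitals.
Unc5a: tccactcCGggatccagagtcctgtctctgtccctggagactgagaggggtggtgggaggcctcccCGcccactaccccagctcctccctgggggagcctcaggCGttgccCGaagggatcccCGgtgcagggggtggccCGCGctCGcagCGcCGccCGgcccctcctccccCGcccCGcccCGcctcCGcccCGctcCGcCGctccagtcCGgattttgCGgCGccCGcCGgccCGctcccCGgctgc
Aifm3: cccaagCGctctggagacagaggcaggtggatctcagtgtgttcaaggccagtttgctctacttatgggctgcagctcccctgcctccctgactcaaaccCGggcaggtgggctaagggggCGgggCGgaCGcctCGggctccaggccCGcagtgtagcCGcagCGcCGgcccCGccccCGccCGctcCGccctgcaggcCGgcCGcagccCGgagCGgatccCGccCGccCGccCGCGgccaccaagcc
Hmga1: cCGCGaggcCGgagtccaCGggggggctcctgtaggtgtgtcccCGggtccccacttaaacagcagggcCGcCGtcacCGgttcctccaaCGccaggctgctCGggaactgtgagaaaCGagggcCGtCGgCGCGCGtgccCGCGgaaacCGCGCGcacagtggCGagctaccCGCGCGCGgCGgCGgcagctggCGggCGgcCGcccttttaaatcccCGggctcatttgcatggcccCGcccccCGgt
Myh3: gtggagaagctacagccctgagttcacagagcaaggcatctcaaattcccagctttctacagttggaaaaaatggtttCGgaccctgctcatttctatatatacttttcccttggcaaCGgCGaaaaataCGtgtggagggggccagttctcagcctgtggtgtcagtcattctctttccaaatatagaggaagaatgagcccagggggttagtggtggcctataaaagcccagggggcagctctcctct

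These windows held 25 CG in Unc5a, 23 in Aifm3, 34 in Hmga1 and 4 in Myh3. Over 32851 annotated promoters of the same length the median was 6, and 17.9% held 20 or more. Map3k9 had 25 CG, Chtf18 15, the 2 Radil promoters 20 and 2 and the 4 Ndrg4 promoters 6 to 31. Motifs were searched on both strands in the 13 promoters of the 8 genes, of which those of 1 gene can overlap. The GC box GGGCGG was found in 9 of the 13, in every gene but Myh3, and in 32.7% of all promoters. TATAAA was found in 2, that of Myh3, starting 29 bases before the start, and 1 of the 4 of Ndrg4, and in 12.4% of all promoters. CCAAT was found in 6, of Map3k9, Ndrg4, Radil and Chtf18, and in 33.8% of all promoters, the E-box CACGTG in 1, of Ndrg4, and in 6.02%, and neither TTCCCGC nor TGACGTCA in any of the 13, with 3.82% and 1.55% of all promoters. These matches describe letters in a window. Methylation of these promoters was not analysed here.

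In DNMT3L KO testis every one of the 9 genes was below all 6 control libraries, by the rule that chose them. The signalling genes come first. Unc5a, a netrin receptor of the dependence receptor class, was at 3.07, 3.24 and 3.25 RPKM in WT, 3.14, 2.92 and 2.81 in het and 0.469, 0.595 and 0.516 in KO testis. Camk4, a calmodulin-dependent kinase that phosphorylates CREB family factors and is expressed in testis, was at 0.694, 0.756 and 0.633 in WT, 0.826, 0.723 and 0.707 in het and 0.102, 0.118 and 0.126 in KO. Map3k9, a mixed lineage kinase at the head of the JNK cascade, was at 3.91, 4.61 and 3.76 in WT, 4.71, 4.07 and 4.23 in het and 0.918, 0.964 and 1.07 in KO. In all 3 genes WT and het libraries overlapped and the KO libraries lay far below both.

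The cytoplasmic, mitochondrial and cytoskeletal genes followed the same order. Aifm3, a relative of apoptosis-inducing factor, was at 9.41, 11.5 and 9.97 RPKM in WT, at a mean of 11.1 ± 0.512 (SD, n = 3) in het and at 2.07, 2.1 and 2.29 in KO testis. Ndrg4, a cytoplasmic member of the NDRG family best known in brain and heart, was at 26.8, 30.9 and 27.1 in WT, 31.6, 31.5 and 32.3 in het and 7.69, 6.4 and 7.38 in KO. Radil, a RAP1 effector in cell adhesion, was at 11.8, 12.9 and 12.1 in WT, 13.0, 13.6 and 14.4 in het and 3.31, 3.52 and 3.98 in KO. In each of these 3 genes the KO libraries lay far below the controls and did not overlap them. Myh3, the embryonic skeletal muscle myosin heavy chain, was the lowest of the 9 in RPKM in the KO, at 0.0566, 0.0447 and 0.063 or 12 to 18 reads per library, against 0.697, 0.79 and 0.879 in WT and 0.755, 0.721 and 0.763 in het.

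The nuclear genes had the smallest differences. Hmga1, an AT-hook chromatin protein abundant in dividing cells, was at 133, 166 and 140 RPKM in WT, 158, 152 and 159 in het and 43.0, 45.6 and 49.7 in KO testis. Chtf18, a subunit of the alternative clamp loader that works with PCNA in replication and cohesion and that is needed in male meiosis, was at 16.6, 19.3 and 17.2 in WT, 19.7, 18.3 and 19.6 in het and 5.82, 5.63 and 6.35 in KO. The fitted log2 differences of KO from all 6 controls were -3.75 for Myh3, -2.60 for Camk4, -2.49 for Unc5a, -2.27 for Aifm3, -2.06 for Map3k9, -2.02 for Ndrg4, -1.80 for Radil, -1.67 for Hmga1 and -1.59 for Chtf18. Their ranks from the lowest ran from 35 to 496 of the 15665 genes tested, Myh3 being the lowest and Chtf18 the highest of the members. The calls could not inform on these genes, since this contrast chose them: all 9 of 9 and 29% of all genes tested were called lower.

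**Figure D1:**
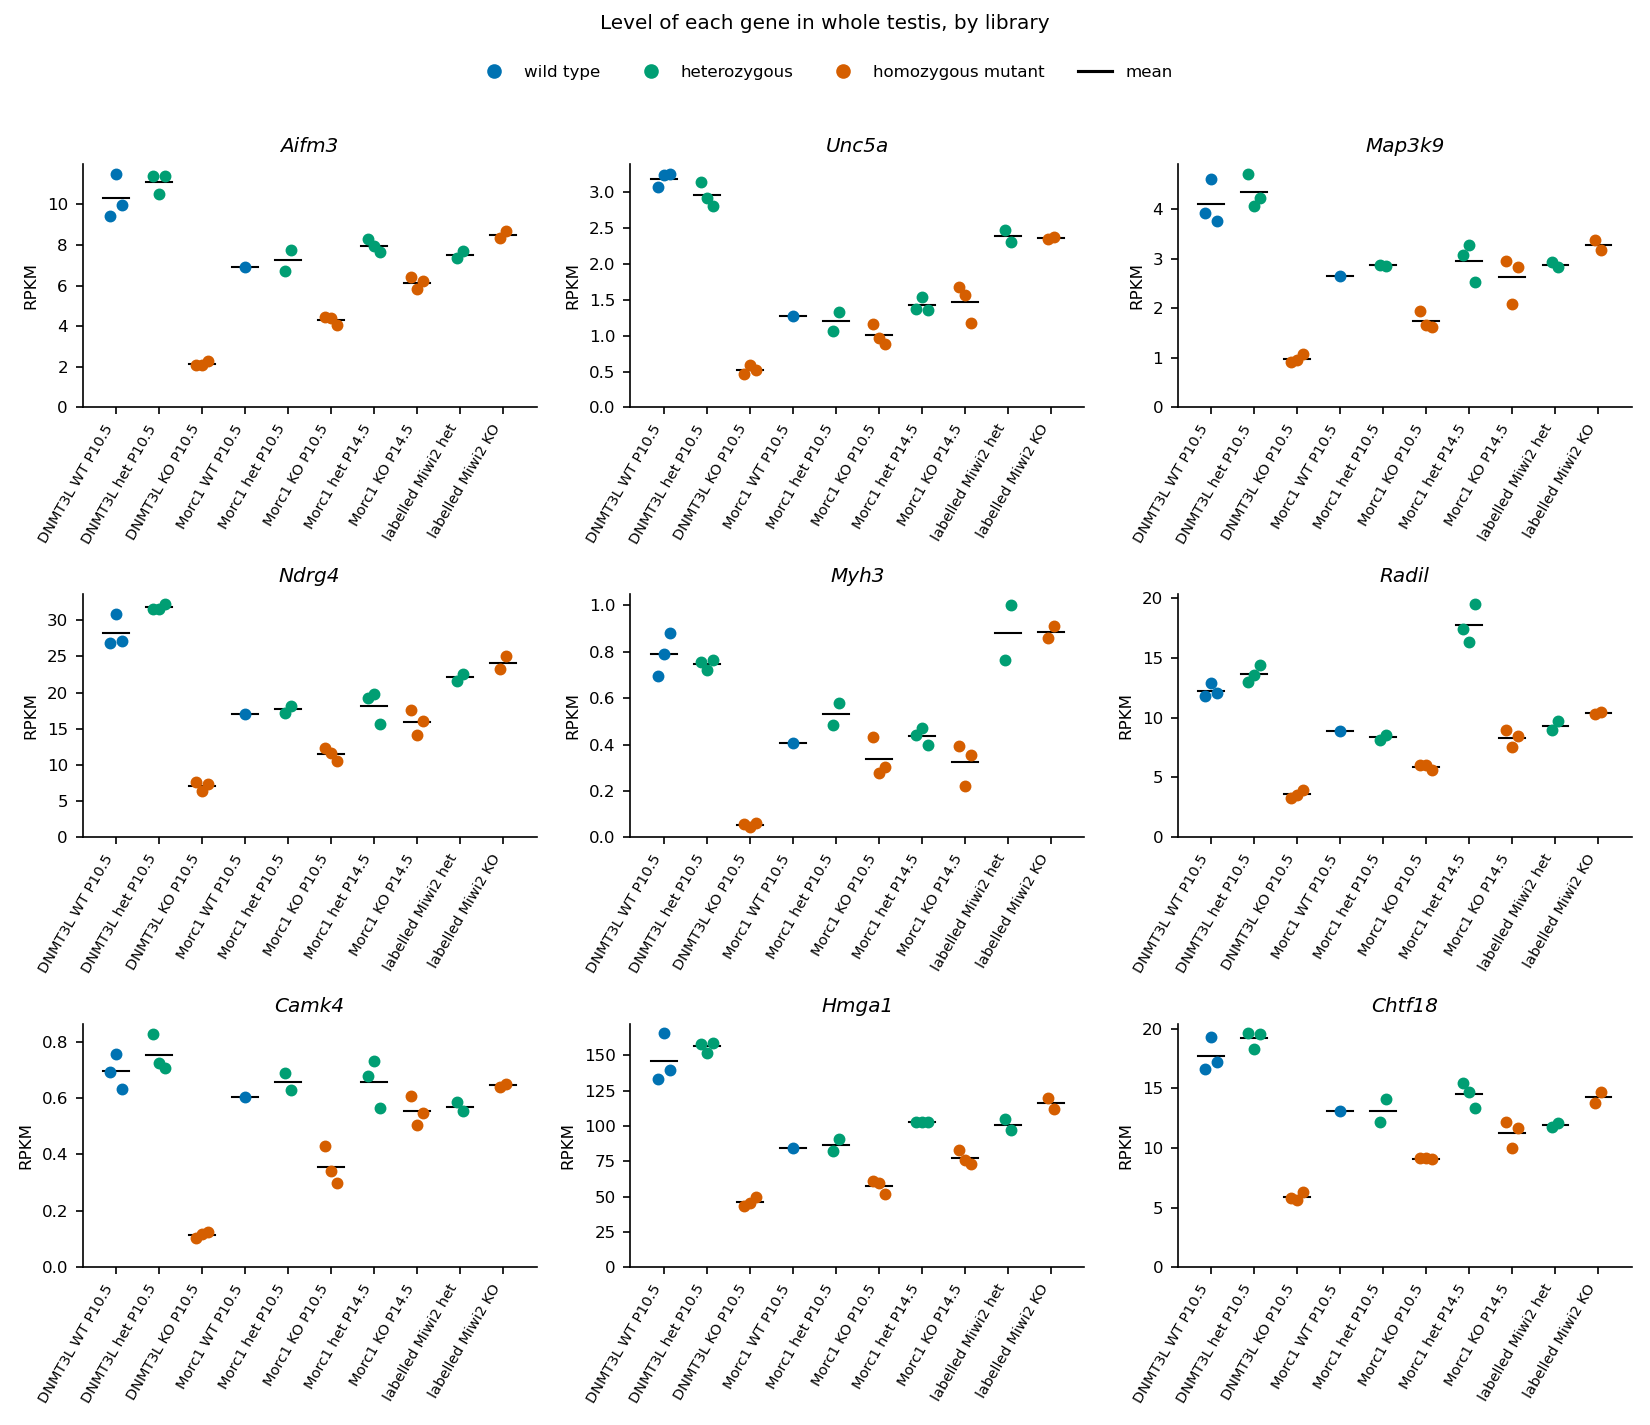
Level of each of the 9 genes in whole testis, in RPKM on a linear axis from 0, with 1 point per library, a bar at each group mean, and colours for wild type, heterozygous and homozygous mutant libraries. DNMT3L KO points lie below all control points in every panel, Morc1 KO points at P10.5 lie below their controls in 7 panels, and points labelled Miwi2 KO lie above those labelled Miwi2 het in 7 panels.

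DNMT3L het testis is set beside WT as a description, since both took part in the choice as controls. Het and WT testis differed by log2 -0.10 for Unc5a to 0.18 for Ndrg4 (SE 0.074). Approximate 95% intervals, from the SE and the normal distribution, lay within -0.34 to 0.35. In Ndrg4 and Radil every het library was above every WT library, as in 2.8% of all genes of at least 0.5 RPKM in WT. Ndrg4, at 31.5 to 32.3 RPKM in het against 26.8 to 30.9 in WT, had the largest of these differences. By edgeR's quasi-likelihood test 0 of the 9 were called (1 at an unadjusted p under 0.05, and 0 by DESeq2), where 0.00651% of all genes were, and nothing is read from these calls.

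In Morc1 KO testis at P10.5, 7 of the 9 genes fell, against 9.26% of all genes called lower in that comparison, and none rose. Camk4 was at 0.602 RPKM in the WT, 0.688 and 0.628 in the het and 0.43, 0.342 and 0.299 in the KO testes, a log2 fold change of -0.84 (SE 0.133, adjusted p = 0.00206). Aifm3 was at 6.92 in WT, 6.72 and 7.77 in het and 4.43, 4.42 and 4.06 in KO, a change of -0.72 (SE 0.0768, adjusted p = 0.000235). Both genes had every KO library below every control library. Map3k9 was at 2.64 in WT, 2.88 and 2.86 in het and 1.95, 1.66 and 1.63 in KO, a change of -0.67 (SE 0.0798, adjusted p = 0.000447).

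The other 4 genes that fell kept between 65.9% and 69.4% of their control mean. Ndrg4 was at 17.1 RPKM in WT, 17.2 and 18.2 in het and 12.3, 11.7 and 10.6 in KO (log2 fold change -0.59), and Hmga1 at 84.1 in WT, 82.4 and 90.7 in het and 60.8, 59.9 and 51.5 in KO (-0.57). Radil was at 8.87 in WT, 8.16 and 8.58 in het and 6.02, 6.03 and 5.61 in KO (-0.52), and Chtf18 at 13.1 in WT, 12.2 and 14.1 in het and 9.13, 9.16 and 9.04 in KO (-0.51). In these 4 genes too the KO and control libraries did not overlap, with adjusted p between 0.000209 and 0.000402. Over all genes of at least 0.5 RPKM in the controls, 21.5% had every KO library below every control, against these 7 of 9.

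Unc5a and Myh3 did not pass the test in Morc1 KO testis at P10.5. Unc5a was at 1.28 RPKM in WT, 1.07 and 1.33 in het and 1.16, 0.971 and 0.88 in KO, with overlap (log2 fold change -0.29, SE 0.135, adjusted p = 0.174). Myh3 was at 0.406 in WT, 0.484 and 0.578 in het and 0.433, 0.277 and 0.304 in KO (-0.53, SE 0.193, adjusted p = 0.0872), and it passed when KO replicate 1 was left out (-0.72, adjusted p = 0.029). Myh3 and Unc5a were among the 3 members with the largest differences in the DNMT3L line. The median log2 fold change of the 9 genes was -0.57, beside 0.01 over all genes tested.

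At P14.5 the Morc1 KO testes showed a narrower set of falls, with 4 of the 9 genes called lower against 20.1% of all genes. Radil was at 17.4, 16.3 and 19.5 RPKM in het and 8.93, 7.53 and 8.48 in KO, a log2 fold change of -1.09 (SE 0.0912, adjusted p = 0.000123). Hmga1 was at 103 in all 3 het and at 82.9, 76.2 and 73.0 in KO (-0.40, SE 0.0544, adjusted p = 0.000813). In both genes every KO library was below every het, as in 30.0% of all genes of at least 0.5 RPKM in het. Aifm3 was at 8.31, 7.94 and 7.64 in het and 6.41, 5.83 and 6.22 in KO (-0.36, SE 0.0691, adjusted p = 0.00432), and Chtf18 at 15.5, 14.7 and 13.4 in het and 12.2, 9.99 and 11.7 in KO (-0.36, SE 0.0804, adjusted p = 0.00893).

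The remaining 5 genes did not pass at P14.5. Unc5a was at 1.37, 1.54 and 1.36 RPKM in het and 1.68, 1.57 and 1.18 in KO (log2 fold change 0.06), Map3k9 at 3.07, 3.28 and 2.52 against 2.95, 2.08 and 2.83 (-0.17), and Ndrg4 at 19.2, 19.8 and 15.6 against 17.6, 14.2 and 16.1 (-0.18). All 3 overlapped between genotypes. Camk4 was at 0.678, 0.733 and 0.565 in het and 0.609, 0.504 and 0.548 in KO (-0.24), also with overlap. Myh3 was at 0.442, 0.473 and 0.397 against 0.392, 0.222 and 0.355 (-0.43, adjusted p = 0.159). Every KO library of Myh3 was below every het, an order that 30.0% of genes of at least 0.5 RPKM in het had. Skeletal muscle markers also summed lower in these KO testes, to 81.1% of het without overlap, although Myh4, one of them, was called higher (log2 1.12). Their part in the Myh3 values was not tested.

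The change between ages was tested directly as the Morc1 effect at P14.5 minus that at P10.5, for which 8.22% of all genes were called. Radil was further below its controls at P14.5 than at P10.5 (difference of log2 fold changes -0.57, SE 0.11, adjusted p = 0.00468), and it was called in all 15 settings tried. Those settings did not include the scaling to germ cell markers described below. On that scale its separate effects were -0.22 at P14.5 and -0.07 at P10.5, and their difference was not tested. Aifm3 was nearer to its controls (0.34, SE 0.098, adjusted p = 0.0445), and it was called in 7 of the 15, being lost when any of 8 single libraries was left out (adjusted p up to 0.116). Ndrg4 at 0.40 (adjusted p = 0.0543), Camk4 at 0.59 (adjusted p = 0.076) and Map3k9 at 0.49 (adjusted p = 0.0868) did not pass, although DESeq2 called these 3 as well. In Morc1 het testes Radil itself rose from P10.5 to P14.5 by log2 1.07 (SE 0.0897, adjusted p = 3.42e-05) and Hmga1 by 0.23 (adjusted p = 0.0077), the only 2 of the 9 called where 51.4% of all genes were. These comparisons share the control libraries at both ages. Papolb, inside Radil, moved with it: it rose in the het testes by 2.09 and fell in the KO at P14.5 (log2 -2.02, adjusted p = 0.000678), and its part in the Radil values was not tested.

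In the libraries labelled Miwi2 KO none of the 9 genes passed, where 1.23% of all genes were called in either direction. Aifm3 was at 7.36 and 7.69 RPKM in the libraries labelled het and at 8.33 and 8.69 in those labelled KO, Hmga1 at 105 and 97.0 against 120 and 112, and Chtf18 at 11.8 and 12.1 against 13.8 and 14.7. These genes, with Map3k9, Ndrg4, Radil and Camk4, made 7 of 9 with both libraries labelled KO above both labelled het, as in 30.1% of all genes of at least 0.5 RPKM. Unc5a, at 2.47 and 2.3 against 2.35 and 2.38, and Myh3, at 0.763 and 1.0 against 0.858 and 0.913, overlapped. The log2 fold changes ran from -0.03 for Unc5a to 0.24 for Chtf18 (SE 0.0663, adjusted p = 0.0961). By unadjusted p under 0.05 there were 4 genes, Aifm3, Map3k9, Hmga1 and Chtf18, and DESeq2 called 0. With the replicate number as a block, 5 were called higher among 4503 genes called in all, and no source says that these numbers mark pairs.

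The effects under the Miwi2 and Morc1 labels at P10.5 were then compared with each other, a test for which 6.78% of all genes were called. The same 7 genes that fell in Morc1 KO testis differed, each higher under the Miwi2 label: Camk4 by log2 1.0 (SE 0.182, adjusted p = 0.00452), Aifm3 by 0.87, Map3k9 by 0.82, Hmga1 and Chtf18 by 0.74, Ndrg4 by 0.68 and Radil by 0.66. Unc5a, at 0.25 (adjusted p = 0.45), and Myh3, at 0.50 (adjusted p = 0.281), did not pass. All 9 differences had the same sign. They were not fitted on the germ cell marker scale described below. There the separate log2 effects, Miwi2 label then Morc1 KO, were -0.13 and -0.26 for Aifm3 and -0.13 and -0.38 for Camk4. They were -0.12 and -0.21 for Map3k9, -0.1 and -0.11 for Hmga1 and -0.05 in both for Chtf18. Ndrg4 (-0.18 and -0.13), Radil (-0.15 and -0.07), Myh3 (-0.3 and -0.07) and Unc5a (-0.32 and 0.17) were lower under the Miwi2 label. The direction of the Miwi2 side rests on labels that Piwil4 went against. With library sizes set by all genes, the sign of the Miwi2 effects was also turned. The differences from the separately fitted Morc1 effects, given with no test, would then run from 0.27 for Chtf18 to 0.68 for Camk4 and still share their sign.

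**Figure D2:**
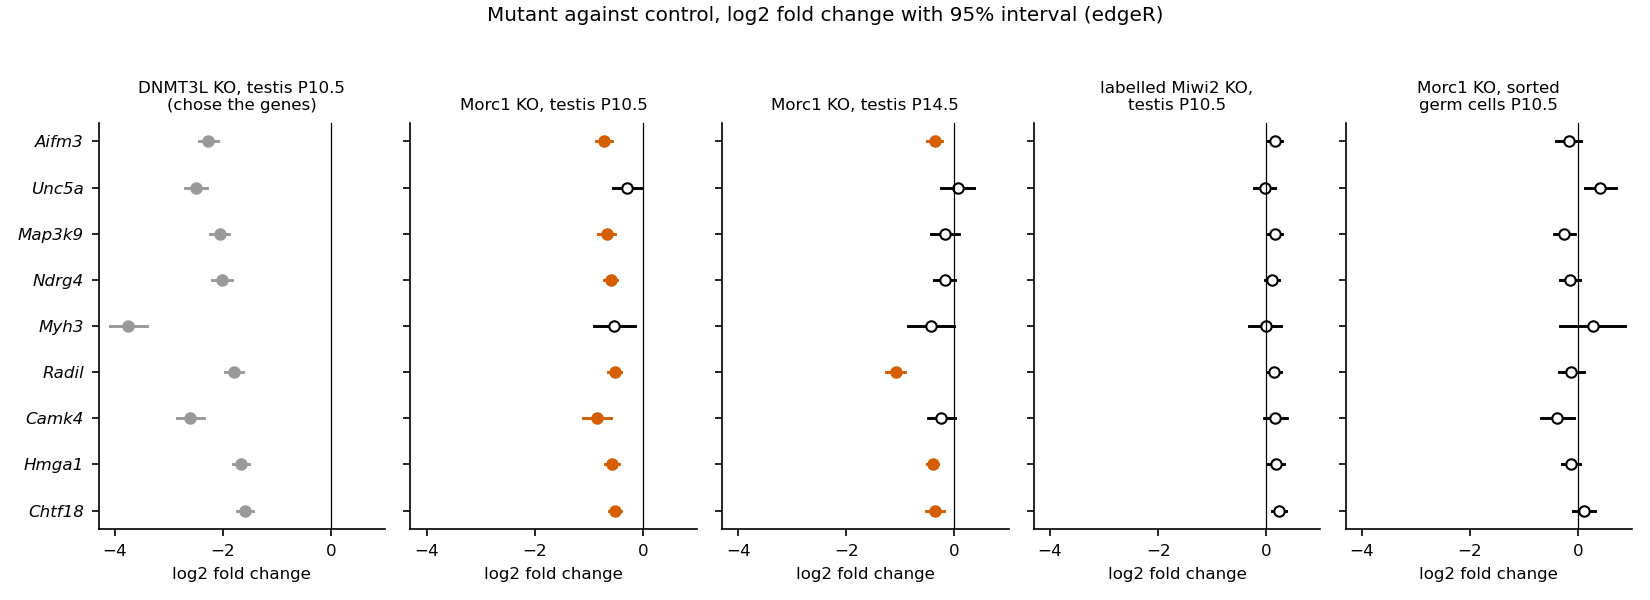
Fitted log2 fold change of mutant against control with an approximate 95% interval for each of the 9 genes, with 1 panel per comparison and a shared axis. The intervals use the SE and the normal distribution and are narrower than the quasi-likelihood test implies, so they do not show which genes passed. Filled coloured points passed an adjusted p of 0.05, open points did not, and grey points are the DNMT3L contrast that chose the genes. The coloured points are 7 in the Morc1 testis at P10.5 and 4 at P14.5, with none in the libraries labelled Miwi2 KO or in sorted germ cells at P10.5.

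Germ cell markers moved in the same testes. The 11 germ cell markers summed to 234 to 278 RPKM in DNMT3L KO and 592 to 754 in its controls, 309 to 353 in Morc1 KO at P10.5 and 460 to 475 in its controls, and 459 to 512 against 778 to 905 at P14.5. They were above the controls in the libraries labelled Miwi2 KO, at 689 in both, against 603 to 615. Piwil2, one of the 11, rose there by log2 1.66 (adjusted p = 1.39e-06). In the same libraries early meiosis genes (94.3%) and differentiating spermatogonia markers (99.0%) overlapped those labelled het. Markers of undifferentiated spermatogonia stood at 106% and Sertoli markers at 112%, both without overlap. Of the 11, 11 were called lower in the DNMT3L line, 9 in Morc1 at P10.5 and 9 at P14.5. The 17 early meiosis genes were all called lower in those 3 comparisons, and summed to 34.9%, 51.0% and 34.9% of control, while the 9 Sertoli markers summed to 135%, 117% and 137%. Other somatic lists also stood apart: endothelial genes in the DNMT3L line (138%), and endothelial (116%), Leydig cell (129%) and fat genes (143%) in Morc1 at P10.5. At P14.5 fat genes were above het (156%) and skeletal muscle genes below (81.1%). The remaining somatic lists overlapped. The 10 markers of undifferentiated spermatogonia summed to 77.4% of control in the DNMT3L line, to 105% with overlap in Morc1 at P10.5 and to 117% at P14.5, with every KO library above every het. No germ cell marker was at 0 throughout any of these groups, and the part of these markers in the values of the 9 genes was not tested.

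Set beside these sums, the 9 genes kept 7.14% (Myh3) to 32.1% (Chtf18) of their control mean in DNMT3L KO testis, with a median of 23.3% where germ cell markers kept 38.1% and the differentiating spermatogonia markers 23.6%. That contrast chose the genes for being low, so nothing is read from their place beside the markers there. In Morc1 KO testis at P10.5 they kept 55.8% (Camk4) to 81.8% (Unc5a), with a median of 66.9% beside 71.1% and 55.7%. At P14.5 they kept 46.8% (Radil) to 104% (Unc5a), with a median of 77.5% beside 57.1% and 74.1%. In the libraries labelled Miwi2 KO they stood at 99.1% (Unc5a) to 119% (Chtf18), with a median of 113% beside 113% and 99.0%. That direction is that of the labels, and the ratio of labelled het to labelled KO ran from 0.838 (Chtf18) to 1.01 (Unc5a). In the same order of comparisons early meiosis genes stood at 34.9%, 51.0%, 34.9% and 94.3%. Undifferentiated spermatogonia markers stood at 77.4%, 105%, 117% and 106%.

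**Figure D3:**
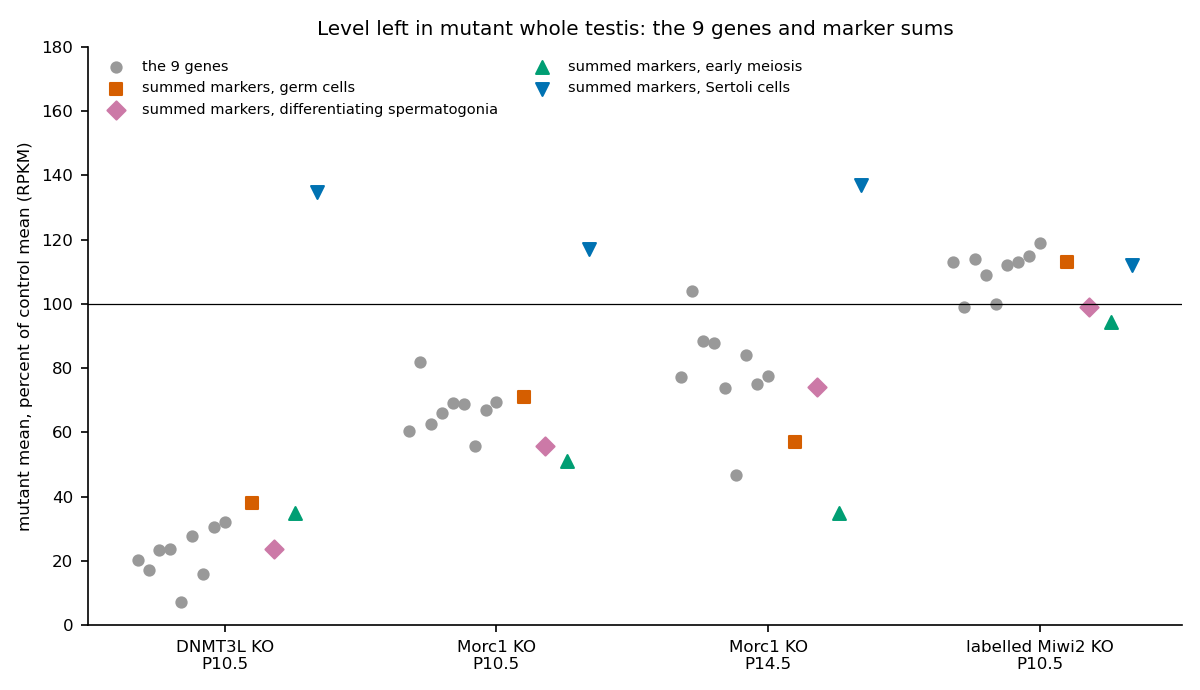
Level left in mutant whole testis as a percent of the control mean, from mean RPKM, for each of the 9 genes (grey circles) and for the summed markers of 4 cell classes (coloured symbols), in 4 comparisons. The genes lie between 7.14% and 32.1% in DNMT3L KO testis, the contrast that chose them, and around 113% in the libraries labelled Miwi2 KO. Sertoli markers are above 100% in all 4.

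When library sizes were set by the germ cell markers in place of all genes, a scaling added after seeing the data, the calls changed. In Morc1 KO testis at P10.5, 3 of the 9 were lower, Aifm3 (log2 -0.26), Map3k9 (-0.21) and Camk4 (-0.38), and Ndrg4, Radil, Hmga1 and Chtf18 were at -0.13 to -0.05 and no longer passed. At P14.5, 7 of the 9 were called higher, from 0.45 for Hmga1 to 0.91 for Unc5a, of which all but Unc5a had been below their controls, and Radil was at -0.22 (adjusted p = 0.0945). The scaling moves all genes alike: their median was 0.47 and 0.87 under it, beside 0.01 in both without it, and 12389 of 15165 and 13794 of 15283 genes were called. The marker sum in Morc1 control testes was itself 460 to 475 RPKM at P10.5 and 778 to 905 at P14.5. How far it follows germ cell stage was not tested. In the DNMT3L contrast the 9 genes stayed below their controls on this scale, from -2.39 for Myh3 to -0.22 for Chtf18. That contrast chose them for being low, so this is a description and nothing is read from it. Over all genes the median there was 1.37, and 14608 of 15665 genes were called.

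The DNMT3L controls themselves stood higher than the controls of the other lines for most of the 9 genes, which is given as a description since they took part in the choice. In all but Camk4, all 6 DNMT3L control libraries were above all 3 Morc1 control libraries, at 141% (Chtf18) to 250% (Unc5a) of their mean, an order that 18.6% of all genes of at least 0.5 RPKM had. In all but Myh3 they were above both libraries labelled Miwi2 het, at 127% to 155%, as in 31.7% of all such genes. DNMT3L KO testes were below Morc1 KO testes in all 9, from 16.2% for Myh3 to 80.3% for Hmga1, as in 27.1% of all such genes. The DNMT3L KO values chose the genes for being low, so nothing is read from this order. Myh3 (0.338) and Camk4 (0.357) were themselves below 0.5 RPKM in Morc1 KO testis. Line, strain and collection cannot be told apart in these values.

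In sorted germ cells Morc1 genotype gave 1 call among the 9 genes over 4 stages. At E16.5, where Morc1 itself was at 36.1 and 52.9 RPKM in het and 11.1 and 8.29 in KO cells, 1 gene passed, Camk4, against 0.421% of all genes. Camk4 was at 0.513 and 0.565 in het and 0.991 and 1.53 in KO cells, where it rose (log2 fold change 1.14, SE 0.254, adjusted p = 0.0449). Blood markers were also higher in these KO cells, with sums of 35.6 to 40.0 RPKM against 6.69 to 22.6 in het (5 genes, Hba-a2 at 0 in KO, Hbb-b1 called higher of 4 tested), and 5 macrophage markers summed to 151% of het with none called. Fat (154%), Leydig cell (140%), differentiating spermatogonia (116%) and early meiosis markers (113%) stood above het without overlap too. No marker list stood below het in that way. The part of these markers in the Camk4 value was not tested. The Camk4 call rested on 2 libraries a group and was lost without KO replicate 2 (0.79, adjusted p = 0.266), het replicate 1 (adjusted p = 0.0518) or het replicate 2 (adjusted p = 0.139).

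At E18.5 none of the 8 genes tested passed, with 0.0416% of all genes called. No member was at an unadjusted p under 0.05 and DESeq2 called none. Their log2 fold changes ran from -0.54 for Myh3 (SE 0.387) to 0.35 for Hmga1 (SE 0.158). Morc1 itself, at log2 -2.32 (SE 0.413), did not pass there (adjusted p = 0.139 by edgeR's quasi-likelihood test). This comparison therefore cannot show that the members did not change. Map3k9, Camk4 and Chtf18 had both KO libraries below both het, as in 22.7% of all genes of at least 0.5 RPKM in het. Chtf18, at 0.357 and 0.649 RPKM in het and 0.347 and 0.0863 in KO cells, was too low to be tested there. At P2.5 none of the 9 passed, with 0.0486% of all genes called, 2 at an unadjusted p under 0.05 (Aifm3, at 7.57, 7.53 and 8.99 in het and 3.25 and 6.04 in KO cells, and Hmga1, at 225, 176 and 205 against 249 and 268) and none called by DESeq2.

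At P10.5, the age at which 7 of the 9 fell in whole testis, none passed in sorted cells, with 12.2% of all genes called, 3 members at an unadjusted p under 0.05 and none called by DESeq2. Unc5a was at 4.29, 3.39, 3.33 and 2.63 RPKM in het and 4.56, 4.75 and 5.04 in KO cells (log2 fold change 0.41, SE 0.146, adjusted p = 0.0652). Every KO library of Unc5a was above every het, as in 17.1% of all genes of at least 0.5 RPKM in het. It passed without het replicate 1 (0.51, adjusted p = 0.0424). Map3k9 was at 6.25, 5.62, 5.85 and 6.47 in het and 6.26, 4.68 and 5.17 in KO (-0.25, adjusted p = 0.11), and passed without KO replicate 1 (-0.38, adjusted p = 0.022). Camk4 was at 1.29, 1.0, 1.08 and 1.37 against 1.07, 0.987 and 0.811 (-0.39, adjusted p = 0.11), with overlap. The other 6 lay between -0.17 for Aifm3 and 0.27 for Myh3. Whether the effect in whole testis differs from that in sorted cells was not tested, since the kits and the gate differ.

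Markers of spermatogonial stages in the sorted cells at P10.5 also moved with genotype. Of 10 markers of undifferentiated spermatogonia, 7 were called higher in KO cells, with sums of 191 to 232 RPKM against 140 to 153 in het, and differentiating markers summed to 91.3 to 108 against 134 to 162. Early meiosis genes were called lower in 9 of 17. Their part in the values of the 9 genes was not tested.

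The 9 genes differed most from each other across germ cell stages, read in Morc1 het cells. From E16.5 to E18.5, 3 of the 9 passed, against 18.7% of all genes, from E18.5 to P2.5, 7 passed, against 39.1%, and from P2.5 to P10.5, 3 passed, against 27.6%. Neighbouring steps share the libraries of the stage between them. Reporter, gate and strain background changed between P2.5 and P10.5, so stage and sort cannot be told apart in that last step.

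Chtf18 moved most. It was at 1.39 and 1.32 RPKM at E16.5, then 0.357 and 0.649 at E18.5, 6.39, 4.86 and 6.42 at P2.5 and 10.3, 7.92, 9.16 and 9.17 at P10.5, with log2 changes of -1.37 (adjusted p = 0.0104), 3.32 (SE 0.327, adjusted p = 1.79e-06) and 0.92 (adjusted p = 0.00373). No 2 stages overlapped, and the first change was lost without E16.5 replicate 1 (adjusted p = 0.0639) or E18.5 replicate 1 (adjusted p = 0.0679). Of the 10 clamp loader and clamp genes, 7 fell and none rose from E16.5 to E18.5, where 18.7% of all genes were called in either direction, and 7 rose and none fell from E18.5 to P2.5, where 39.1% were. Pcna rose in the second of these steps by 2.47 (adjusted p = 1.65e-08) and Rfc2 by 2.18 (adjusted p = 8.31e-06).

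Myh3 went the other way. It was at 4.4 and 6.6 RPKM at E16.5, then 7.33 and 4.02 at E18.5, 2.19, 1.52 and 1.32 at P2.5 and 0.502, 0.496, 0.412 and 0.31 at P10.5, with log2 changes of -1.93 (SE 0.314, adjusted p = 0.000194) from E18.5 to P2.5 and -1.66 (SE 0.283, adjusted p = 0.000438) from P2.5 to P10.5. Both embryonic stages were above P2.5, and P2.5 above P10.5, in every library. Skeletal muscle markers fell in the same cells, with sums of 20.3 to 27.9 RPKM at E16.5, 13.1 to 22.3 at E18.5, 3.35 to 4.74 at P2.5 and 0.435 to 1.25 at P10.5, where Acta1 was at 0 at E18.5, Ckm at P2.5 and Tnnc2 at P10.5. Of the 8 other sarcomeric myosin genes, 5 fell and none rose from E18.5 to P2.5, where 39.1% of all genes were called in either direction, with log2 changes of -3.12 for Myh7 (adjusted p = 1.5e-06) and -3.06 for Myh8 (adjusted p = 9.44e-05). The part of muscle RNA in the Myh3 values of sorted cells was not tested.

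Camk4 alternated between stages. It was at 0.513 and 0.565 RPKM at E16.5, then 1.04 and 1.24 at E18.5, 0.722, 0.804 and 0.543 at P2.5 and 1.29, 1.0, 1.08 and 1.37 at P10.5, changes of log2 1.11 (adjusted p = 0.0337), -0.92 (adjusted p = 0.0306) and 1.06 (adjusted p = 0.00832). The first was called in 6 of 14 alternative settings, being lost without the filter on low counts (adjusted p = 0.0517) or when any of 7 single libraries was left out. The second was lost when E18.5 replicate 2, P2.5 replicate 3 or P10.5 replicate 1 was left out. Ndrg4 was highest before birth, with 41.4 and 48.9 at E16.5, then 34.5 and 19.6 at E18.5, against 7.93, 15.1 and 20.0 at P2.5 and 14.9 to 17.3 at P10.5, and fell from E18.5 to P2.5 (log2 -1.06, SE 0.238, adjusted p = 0.0025). E18.5 and P2.5 overlapped in that gene. Ndrg4 also passed from E16.5 to E18.5 in 4 of 14 alternative settings, as without E18.5 replicate 1 (-1.07, adjusted p = 0.0134), and from P2.5 to P10.5 without P2.5 replicate 3 (0.69, adjusted p = 0.0352).

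Aifm3 and Hmga1 rose between E18.5 and P2.5, and Map3k9 passed in that step only narrowly. Aifm3 went from 3.7 and 3.52 RPKM to 7.57, 7.53 and 8.99 (log2 0.96, adjusted p = 0.00196), Hmga1 from 152 and 117 to 225, 176 and 205 (0.42, adjusted p = 0.0241) and Map3k9 from 5.39 and 2.84 to 5.41, 6.67 and 7.14 (0.48, adjusted p = 0.0497). Map3k9 had already risen from 1.9 and 2.29 at E16.5 (0.97, adjusted p = 0.00301), and its later change was called in 2 of 14 alternative settings, being lost with DESeq2 (adjusted p = 0.0619) and without E18.5 replicate 2 (adjusted p = 0.438) among others. The rise of Hmga1 was also lost without E18.5 replicate 2 (adjusted p = 0.129). Unc5a, at 3.19 and 3.09, then 7.79 and 2.15, then 5.7, 6.46 and 7.31, then 2.63 to 4.29, and Radil, at 5.6 and 5.37, then 6.47 and 4.2, then 9.46, 9.19 and 7.81, then 6.47 to 9.41, passed in no step, although Radil did from E18.5 to P2.5 without E18.5 replicate 1 (log2 0.77, adjusted p = 0.0289) or P2.5 replicate 3 (0.69, adjusted p = 0.0327). The 2 E18.5 libraries disagreed strongly on Unc5a, which passed from E16.5 to E18.5 without replicate 2 (log2 1.2, adjusted p = 0.00788) from E18.5 to P2.5 without replicate 1 (1.3, adjusted p = 0.00475) and from P2.5 to P10.5 without either of them (-0.65, adjusted p = 0.0143 and 0.0118).

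**Figure D4:**
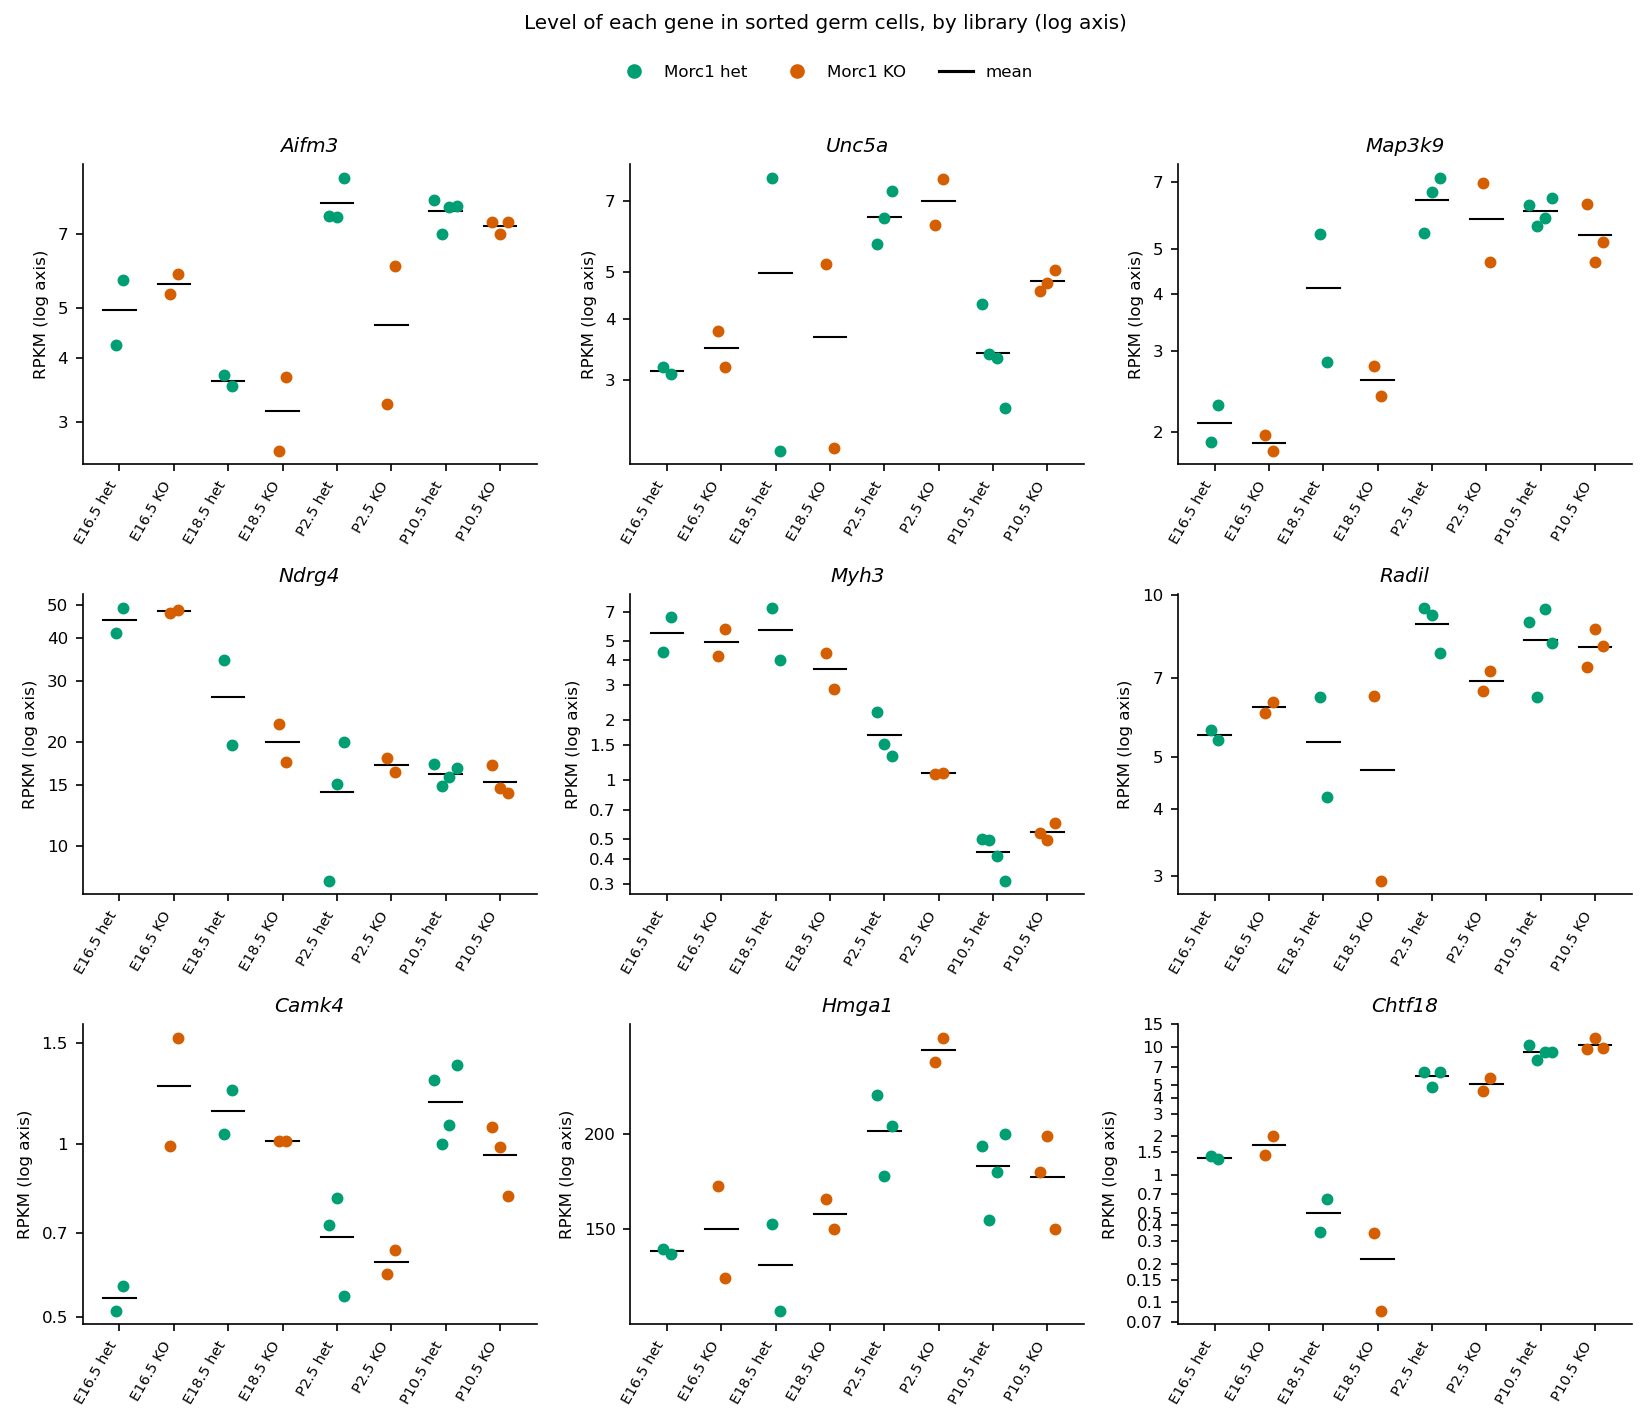
Level of each of the 9 genes in sorted germ cells, in RPKM on a log axis, with 1 point per library and a bar at each group mean, for Morc1 het and Morc1 KO cells of the 4 stages. Myh3 drops from 4.02 to 7.33 at E18.5 to 0.31 to 0.502 at P10.5 in het cells while Chtf18 climbs from 0.357 to 0.649 to 7.92 to 10.3, and at P10.5 het and KO points overlap in all panels but that of Unc5a.

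At P10.5 the 9 genes were set side by side in sorted germ cells and whole testis of Morc1 het mice, where kit and tissue cannot be told apart. Over all genes of at least 0.5 RPKM in the testis the median ratio was 54.1%. Unc5a stood at 284% in the sorted cells, Map3k9 at 211%, Hmga1 at 210% and Camk4 at 180%, each with every sorted library above both testes, as in 15.6% of all those genes. Aifm3 at 107%, Radil at 98.3%, Ndrg4 at 91.6% and Myh3 at 80.9% overlapped, and Chtf18 at 69.6% was below in every sorted library, as in 68.8% of all. All 9 were thus above the median ratio of all genes.

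Genes related to the members by family or pathway were counted from lists, to be read against the 15.3% of all genes called in either direction in Morc1 KO testis at P10.5 (9.26% lower) and the 34.8% at P14.5 (20.1% lower). Of the 10 clamp loader and clamp genes related to Chtf18, none rose and 6 fell in Morc1 KO testis at P10.5 (median log2 fold change -0.25, beside 0.01 over all genes), among them Atad5 at -0.55 (adjusted p = 0.00163) and Pcna at -0.45 (adjusted p = 0.000743). At P14.5, 5 fell (median -0.30), Atad5 at -0.63 and Pcna at -0.55 among them. None was called in the libraries labelled Miwi2 KO, and 8 were lower in DNMT3L KO testis (median -0.40), where 29% of all genes were. Of the netrin receptors and ligands related to Unc5a, 8 were tested in Morc1 KO testis at P10.5, where Unc5d (log2 -1.31, adjusted p = 4.37e-05) and Unc5b (-0.42, adjusted p = 0.0182) fell and Ntn4 rose (0.47, adjusted p = 0.0226). At P14.5 none fell, and Ntn4 (0.41) and Neo1 (0.23) rose.

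Of the 12 mixed lineage kinase and JNK genes around Map3k9, Mapk8ip2, a scaffold of that cascade, fell (log2 -0.83, adjusted p = 0.0218), as did Mapk8, which encodes JNK1 (-0.22), in Morc1 KO testis at P10.5. At P14.5, 2 rose and 4 fell, with Mapk8ip2 at -2.38 (adjusted p = 0.000359). Of the 14 genes of the calmodulin kinase cascade around Camk4, Calm2 alone fell at P10.5 (-0.18, adjusted p = 0.0235), and 3 rose and 4 fell at P14.5, with Crem, a CREB relative of later germ cells, at -1.24 (adjusted p = 0.00336). Of the 8 Rap1 pathway genes around Radil, Kif14, a RADIL-binding kinesin, alone was called at P10.5, where it fell (-0.39, adjusted p = 0.0172). At P14.5 Kif14 (-0.37), Mllt4 (-0.30) and Rapgef1 (-0.21) fell and Rap1b (0.23) and Rapgef2 (0.22) rose. Ndrg2 rose at both ages, by 0.39 and 0.38.

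Among the other sarcomeric myosin genes, none fell in Morc1 KO testis and Myh4 rose at P10.5 (log2 1.14, adjusted p = 0.0168) and P14.5 (1.12, adjusted p = 0.0142). Myh7, at 0.76 (adjusted p = 0.0114), was the 1 gene of all these lists called in the libraries labelled Miwi2 KO. Of the 7 DNA methylation genes, Dnmt1 (-0.40), Dnmt3b (-0.32) and Uhrf1 (-0.45) fell in Morc1 KO testis at P10.5, and at P14.5 Uhrf1 fell (-0.46) and Dnmt3a (0.29), Tet2 (0.55) and Tet3 (0.34) rose. In the DNMT3L contrast that chose the 9 genes, Unc5d was at -2.18, Camk2b at -1.58, Dscam at -1.34, Myh6 at -1.25, Dnmt3b at -1.18, Myh2 at -1.12 and Unc5c at 1.20, as a description.

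Over the 18 whole testis libraries of the Morc1 and Miwi2 lines, which the choice did not use, the 9 genes were correlated to different degrees. The 36 pairwise Pearson correlations of log2(RPKM + 0.1) ran from 0.263 to 0.948 with a median of 0.786, where the libraries share line, genotype and age, and from 0.262 to 0.967 with a median of 0.799 over 16 libraries without the 2 preliminary ones. Over all pairs of the 12579 genes of at least 1 RPKM on average the median r in the 18 libraries was 0.005, with quartiles at -0.394 and 0.407. Genes most like Hmga1 were Tsc22d3 (r = 0.977) and Rpa2 (0.973), those most like Aifm3 were Gramd2 (0.968), Cdc6 (0.964) and Gtse1 (0.962), and those most like Chtf18 were Tbc1d2 (0.954), Uhrf1 (0.952) and Gtse1 (0.941). Radil was closest to Fam178b (0.991), Ccdc21 (0.99) and Mov10l1 (0.989), the last of them in the germ cell marker list, Ndrg4 to Prkag2 (0.982), Mpped2 (0.978) and Wdhd1 (0.973), and Camk4 to Ccnd1 (0.972), Cadps2 and Dennd2c (0.95 each). Among the genes closest to Myh3 were Plekhg2 (0.954) and Ercc6l (0.946), Map3k9 was closest to Gm10439 (0.951), Dennd2c (0.949) and Rasa2 (0.946), and Unc5a to Pop5 (0.959), Mrps12 and Snap47 (0.947 each). These correlations are descriptions over libraries that differ by line and age.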

How the data were processed

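RNA-Seq count tables of 47 libraries were used. According to the methods, the authors trimmed reads to 50 bases, removed ribosomal reads, kept uniquely mapped reads on mm9 and counted them per gene with HTSeq, and they deposited raw counts per gene with RPKM values beside them. Bowtie is named in the submitters' processing notes, and the sources used here do not give the aligner of the gene step. RPKM was used for levels and counts for every test. Genes were filtered with filterByExpr, scaled by TMM and tested with edgeR 4.0.16 (quasi-likelihood test, R 4.3.3) over all genes, with Benjamini-Hochberg adjustment and a threshold of 0.05. Intervals were taken from the SE and the normal distribution and are narrower than that test implies. Each mutant comparison was fitted on its own libraries, the 11 Morc1 het germ cell libraries in a single fit, and differences of effects on the libraries of both, with WT and het together as controls in the DNMT3L line and in Morc1 at P10.5. Some of the mutant comparisons were tried on counts simulated from the same kind of model, which does not check that model. The stage fit and the differences of effects were not simulated.

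The 9 genes and all gene lists were chosen with earlier results of these data known. The named genes are the 9, the targeted genes, genes overlapping a member, the 3 genes most correlated with each (some are not reported here), and list genes past the threshold with an absolute log2 fold change of at least 1 in a mutant testis comparison. List genes named with smaller changes, or for changes between germ cell stages, were picked after their values were seen. Alternatives were DESeq2 1.42.0, RLE size factors, no filter on low counts, leaving out each library in turn, het or WT controls alone, adding the preliminary or WT libraries, the replicate number as a block, and, added after seeing the data, scaling to germ cell markers and correlations without the preliminary libraries. Replicates are single mice, and no pair of libraries of a group was a repeat (lowest chi-square per gene 4.52 over 38 pairs, and 5.49 over 7 pairs with a preliminary library). Small RNA tables, the other assays of the series and proteins of the 9 genes were not analysed here.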

Additional observations from a re-analysis of the deposited data

Results flagged for a closer look

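The effect of the Morc1 genotype on whole testis differed between ages for 2 of the 9 genes, by the test of the difference itself, where 8.22% of all genes were called. The log2 fold change at P14.5 minus that at P10.5 was -0.57 for Radil (edgeR's quasi-likelihood test, adjusted p = 0.00468) and 0.34 for Aifm3 (adjusted p = 0.0445). Aifm3 was called in 7 of 15 alternative settings and lost when any of 8 single libraries was left out (adjusted p up to 0.116). Papolb, inside Radil, fell at P14.5 (log2 -2.02, adjusted p = 0.000678), and its part in the Radil difference was not tested. Germ cell markers summed to 71.1% of control at P10.5 and 57.1% at P14.5 in the same KO testes, and their part in these differences was not tested.

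At P10.5 the effect under the Miwi2 label was above the Morc1 effect for 7 genes, in a test where 6.78% of all genes were called. The differences were log2 0.87 for Aifm3, 0.82 for Map3k9, 0.68 for Ndrg4, 0.66 for Radil, 1.0 for Camk4, 0.74 for Hmga1 and 0.74 for Chtf18. Unc5a and Myh3 did not pass. These differences were not fitted with library sizes set by germ cell markers. On that scale the separate effects did not all differ in this direction. Camk4 was at -0.13 under the Miwi2 label and -0.38 in Morc1 KO, and Radil at -0.15 and -0.07. Germ cell markers summed to 113% of control under the Miwi2 label and 71.1% in Morc1 KO. Piwil2, one of those markers, rose under the Miwi2 label. Early meiosis (94.3%) and differentiating spermatogonia markers (99.0%) overlapped between the Miwi2 labels. Undifferentiated spermatogonia markers stood at 106% and Sertoli markers at 112%, both without overlap. The part of all these markers was not tested. The direction is that of the Miwi2 labels, which Piwil4 went against, and with the Miwi2 sign turned the differences of the 7 would be 0.27 to 0.68, with no test.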

How the results depend on the processing

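Of 174 counts of called members under the alternatives, 151 stayed within 1.5 times the reported count and 23 moved, and of 1558 values of single genes 1423 kept their direction and side of the threshold. Scaling to germ cell markers, chosen after seeing the data, gave 3 called members in Morc1 testis at P10.5, 7 at P14.5 and 2 under the Miwi2 label, among 12389, 13794 and 8578 genes called in all. It turned the P14.5 log2 fold changes to 0.49 for Aifm3, 0.68 for Map3k9, 0.67 for Ndrg4, 0.61 for Camk4, 0.45 for Hmga1 and 0.49 for Chtf18, and that of Ndrg4 under the Miwi2 label to -0.18. For the Morc1 effect at P14.5 minus P10.5, 2 members were called, 5 by DESeq2 and 4 without the filter on low counts, among 1287, 1662 and 1374 genes called in all.

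With the replicate number as a block, 5 members were called under the Miwi2 label in place of 0, and the count of called members changed in no other mutant comparison (9 in the DNMT3L line, 7 in Morc1 at P10.5, 4 at P14.5, 1 at E16.5 and 0 in the 3 later stages of sorted cells). No block was run for stages or for differences of effects. Deviations from group means correlated at -0.46 to 0.35 in 26 same-numbered pairs, and at 0.32 in both pairs of the Miwi2 line, which with 2 libraries a group are a single value, so the numbers were not taken as pairs.

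Leaving out 1 library at a time gave 7 to 8 called members in Morc1 testis at P10.5, 0 to 1 in sorted cells at E16.5 and at P10.5, 1 to 4 from E16.5 to E18.5 (1 without E16.5 het replicate 1), 4 to 9 from E18.5 to P2.5 (4 without E18.5 het replicate 2), 3 to 4 from P2.5 to P10.5 and 1 to 4 for the difference between ages. The counts of the other comparisons did not move. Chtf18 at E18.5, with 0.0863 to 0.649 RPKM, was not tested between genotypes for low counts.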
